A study of Mus musculus with 6 samples.

Results

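Transcription factor genes that direct embryonic neurons to a GABAergic identity were examined in dissected mouse midbrain. They were Gata2, Gata3, Tal1, Tal2, Sox14, Helt, Lhx1, Lhx5, Zfpm1 and Zfpm2, and every probe set annotated to exactly 1 of these 10 symbols was taken. This gave 14 of the 45101 probe sets on the array, for 9 of the 10 genes: Gata2, Tal2, Lhx1, Zfpm1 and Zfpm2 had 2 probe sets each, and Gata3, Tal1, Sox14 and Lhx5 had 1 each. No probe set was named singly for Helt, which is not analysed here. The tissues were the midbrain floor plate and the ventral lateral region next to it, dissected without overlap from C57BL/6 embryos at embryonic day 10.5. Each region had 3 samples, and each sample pooled tissue of 6 embryos of mixed sex. From each, 5 ng of total RNA was amplified, biotin-labelled and hybridised to a mouse Affymetrix array. The labels leave unsaid whether pools of the 2 regions came from the same embryos, so the spread behind the p-values is that of these 6 samples and may be partly technical.

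Neurons of the midbrain that release GABA arise from progenitors lateral to the floor plate, whereas the floor plate itself gives rise to dopaminergic neurons. In mouse, Gata2 is switched on as precursors leave the cell cycle, and without it midbrain precursors take a glutamatergic course. Tal1 and Tal2 are basic helix-loop-helix proteins that can bind DNA beside GATA factors in a complex held together by LIM-domain proteins, and the Zfpm (FOG) proteins are zinc finger cofactors that bind GATA factors directly. Lhx1 and Lhx5 are closely related LIM homeodomain factors of young neurons, and Sox14 marks subsets of GABAergic neurons in the midbrain and diencephalon.

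The deposited value of a probe set is its log signal relative to its own median over the 6 arrays. It compares the samples and gives no level of expression, so the data cannot say whether a selector gene is transcribed in the floor plate at all. The labels state neither log base nor direction; base 2 was assumed, and a higher value was read as more RNA. For this direction, 8 of 9 measured floor plate markers had a probe set higher in floor plate samples, against 4.58% of all genes. Among them were Corin, a serine protease gene (log2 difference 6.36), and the forkhead factor gene Foxa2 (1.76). This list was chosen with earlier results of these data known, so it is not independent of them. Shh missed the threshold in this fit (1.76, adjusted p = 0.0734). Where the samples of the regions do not overlap, the highest sample of one region and the lowest of the other are equal in size and opposite in sign, because 0 lies midway between them. Of 45037 probe sets without controls, 903 were lower and 1218 higher in floor plate at an adjusted p under 0.05 (limma with Benjamini-Hochberg adjustment). Array medians ranged from -0.0031 to 0.0045. Precision is limited by the number of arrays: a typical (median) difference had an SE of 0.127 log2 units. In pooled tissue, fewer cells of a type and less RNA per cell cannot be told apart.

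The selector genes were lower in floor plate than in ventral lateral samples, each of the 9 measured genes on at least 1 probe set. Of the 14 probe sets, 12 were lower past the threshold and 0 were higher; over all probe sets 2.01% were lower and 2.70% were higher. By gene, 9 of 9 had a lower probe set, against 3.25% of all 18193 named genes. The 3 floor plate values lay below the 3 ventral lateral values on the same 12 probe sets, where the background share was 11.0%, and the regions overlapped on the other two. The median log2 difference (floor plate minus ventral lateral) over the 14 probe sets was -2.93, and over all probe sets it was -0.0040. The fall was at least 2-fold on 10 of the 14, compared with 1.03% of all probe sets.

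**Figure D1:**
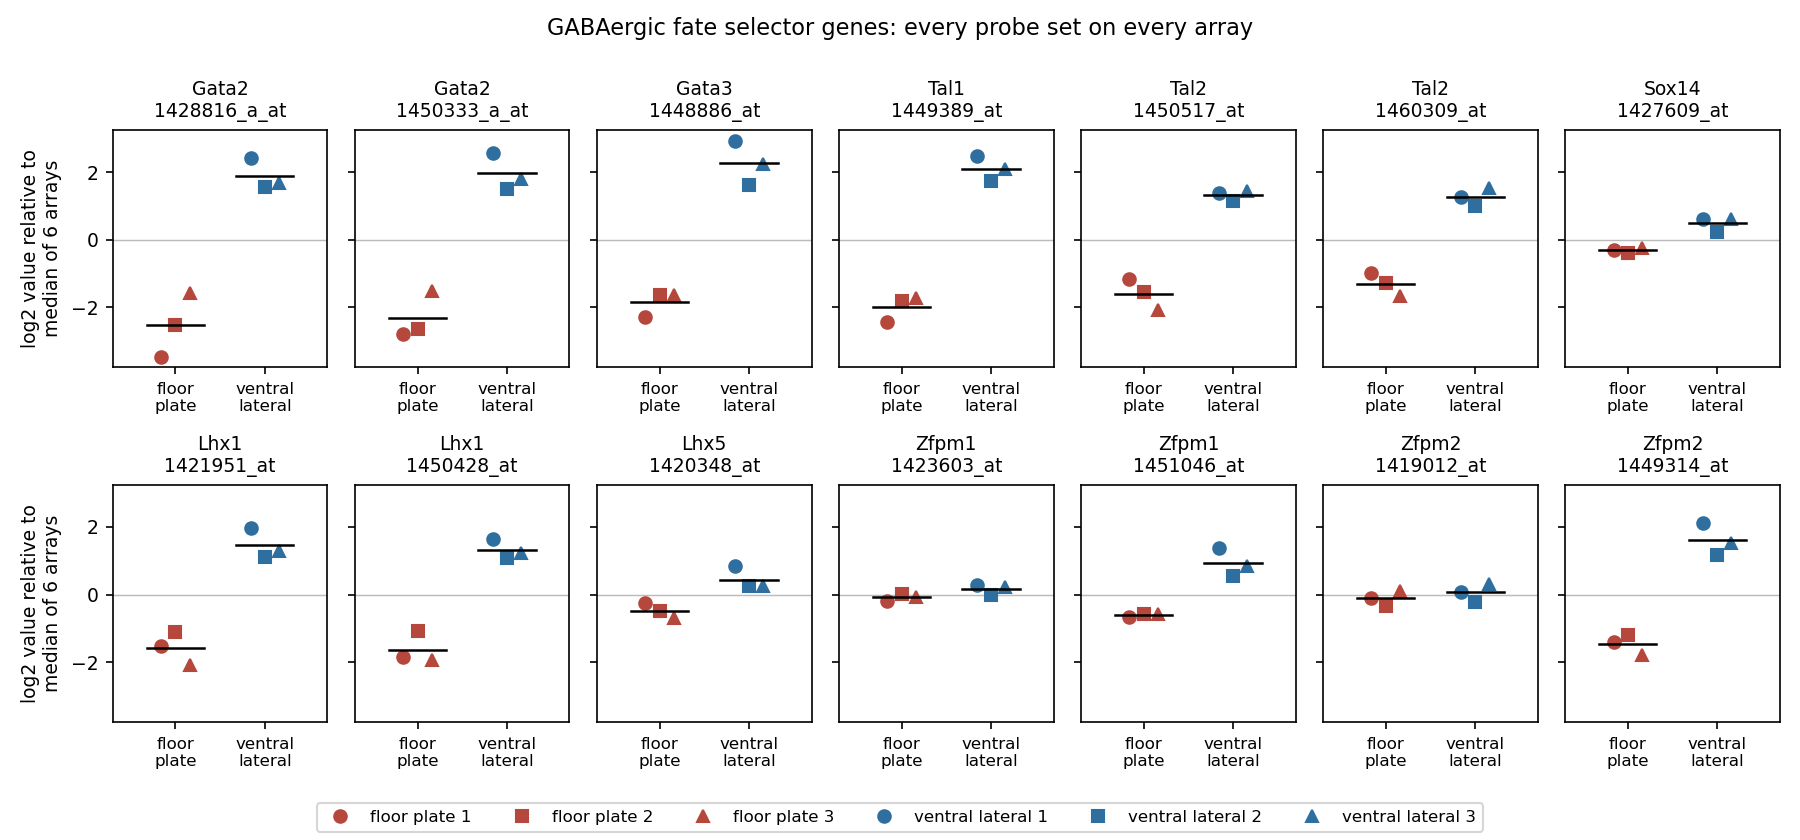
Log2 value relative to the median of the 6 arrays (vertical axis) for each of the 14 probe sets, in the 3 floor plate samples (red, left) and the 3 ventral lateral samples (blue, right). Marker shapes stand for replicate numbers and horizontal bars for the mean of 3. The regions are apart on 12 probe sets and overlap on Zfpm1 1423603_at and Zfpm2 1419012_at.

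The GATA factor genes showed the most negative differences. Gata2, on probe set 1428816_a_at, was at -3.45, -2.53 and -1.57 in the floor plate samples, against 2.41, 1.57 and 1.68 in the ventral lateral samples. Its floor plate samples were spread over 1.89 log2 units, more than any other member probe set in either region, and all lay below the ventral lateral samples. The gene was 21.2-fold lower (log2 difference -4.41, SE 0.45, adjusted p = 0.00184), which placed the probe set at rank 11 from the most negative of 45037. Its other probe set, 1450333_a_at, was at -2.77, -2.65 and -1.50 in floor plate and 2.57, 1.50 and 1.80 in ventral lateral samples (log2 difference -4.27, SE 0.38, adjusted p = 0.00107). The 2 probe sets thus gave the same order of samples within the floor plate, with replicate 3 the highest. Gata3, which follows Gata2 in midbrain precursors, was at -2.28, -1.64 and -1.62 in floor plate and 2.93, 1.62 and 2.24 in ventral lateral samples. It was 17.2-fold lower in floor plate (log2 difference -4.11, SE 0.33, adjusted p = 0.000604).

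The Tal genes were lower as well. Tal1, also known as a master regulator of blood formation, was at -2.42, -1.81 and -1.73 in floor plate, against 2.49, 1.73 and 2.08 in ventral lateral samples. It was 17.0-fold lower, with the smallest adjusted p of the 14 probe sets (log2 difference -4.09, SE 0.24, adjusted p = 0.000239). Tal2, which midbrain GABAergic neurons of mouse require, was at -1.15, -1.56 and -2.07 in floor plate and 1.38, 1.15 and 1.43 in ventral lateral samples on probe set 1450517_at. The log2 difference was -2.91 (SE 0.22, adjusted p = 0.000481), and on probe set 1460309_at it was -2.57 (SE 0.20, adjusted p = 0.000582). In Tal2 the order of the floor plate samples was the reverse of that in Gata2, with replicate 1 the highest and replicate 3 the lowest on both probe sets. The 95% interval of Tal1 (-4.64 to -3.53) lay wholly below those of both Tal2 probe sets (-3.43 to -2.40 and -3.04 to -2.10), while the intervals of Gata2, Gata3 and Tal1 overlapped one another. Differences between genes were not themselves tested, and probe sets can differ in how fully they report a change.

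Lhx1 fell to -1.53, -1.11 and -2.07 in floor plate samples, against 1.98, 1.11 and 1.28 in ventral lateral samples on probe set 1421951_at (log2 difference -3.02, SE 0.29, adjusted p = 0.00155). Its other probe set, 1450428_at, had a log2 difference of -2.94 (SE 0.25, adjusted p = 0.000758), only 0.08 from the first. Lhx5, its close relative, differed far less on its only probe set. It was at -0.24, -0.48 and -0.69 in floor plate and 0.84, 0.24 and 0.24 in ventral lateral samples, a 1.89-fold fall just past the threshold (log2 difference -0.92, SE 0.19, adjusted p = 0.0395). The interval of Lhx5 (-1.36 to -0.47) did not meet those of Lhx1 (-3.70 to -2.34 and -3.51 to -2.37). The difference between these genes was not itself tested, and a probe set may report a change only in part. Lhx5 missed the threshold when any 1 of the 6 samples was left out (adjusted p of 0.057 to 0.121), with a log2 difference of -1.03 to -0.72.

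Sox14 was at -0.31, -0.39 and -0.23 in floor plate and 0.61, 0.23 and 0.62 in ventral lateral samples. The regions were apart, but by less than for the GATA and Tal genes, and the fall was 1.74-fold (log2 difference -0.80, SE 0.13, adjusted p = 0.0137). Leaving out floor plate replicate 1 took Sox14 over the threshold (adjusted p = 0.0566), as did leaving out ventral lateral replicate 1 (0.0575) or 3 (0.0559).

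Both Zfpm genes gave an answer that depended on the probe set, although the platform annotation assigns both probe sets of each gene to the same sequence record. Zfpm2 (FOG-2) on probe set 1449314_at was at -1.39, -1.18 and -1.78 in floor plate and 2.12, 1.18 and 1.52 in ventral lateral samples, 8.32-fold lower in floor plate (log2 difference -3.06, SE 0.25, adjusted p = 0.000699). On probe set 1419012_at the same gene was at -0.09, -0.33 and 0.11 in floor plate, against 0.09, -0.20 and 0.33 in ventral lateral samples (log2 difference -0.17, 95% interval -0.56 to 0.22, adjusted p = 0.697). These 2 intervals did not overlap, and the differences were 2.88 log2 units apart. Zfpm1 (FOG-1) on probe set 1451046_at was at -0.65, -0.58 and -0.56 in floor plate and 1.39, 0.56 and 0.85 in ventral lateral samples. That was a 2.89-fold fall (log2 difference -1.53, SE 0.20, adjusted p = 0.00484), with floor plate samples within 0.09 of each other. Zfpm1 on probe set 1423603_at had a log2 difference of -0.23 (95% interval -0.50 to 0.03, adjusted p = 0.377), and its regions overlapped. In both genes the probe set with the lower number was the one that did not pass, and the 7 other measured genes were lower on every probe set.

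**Figure D2:**
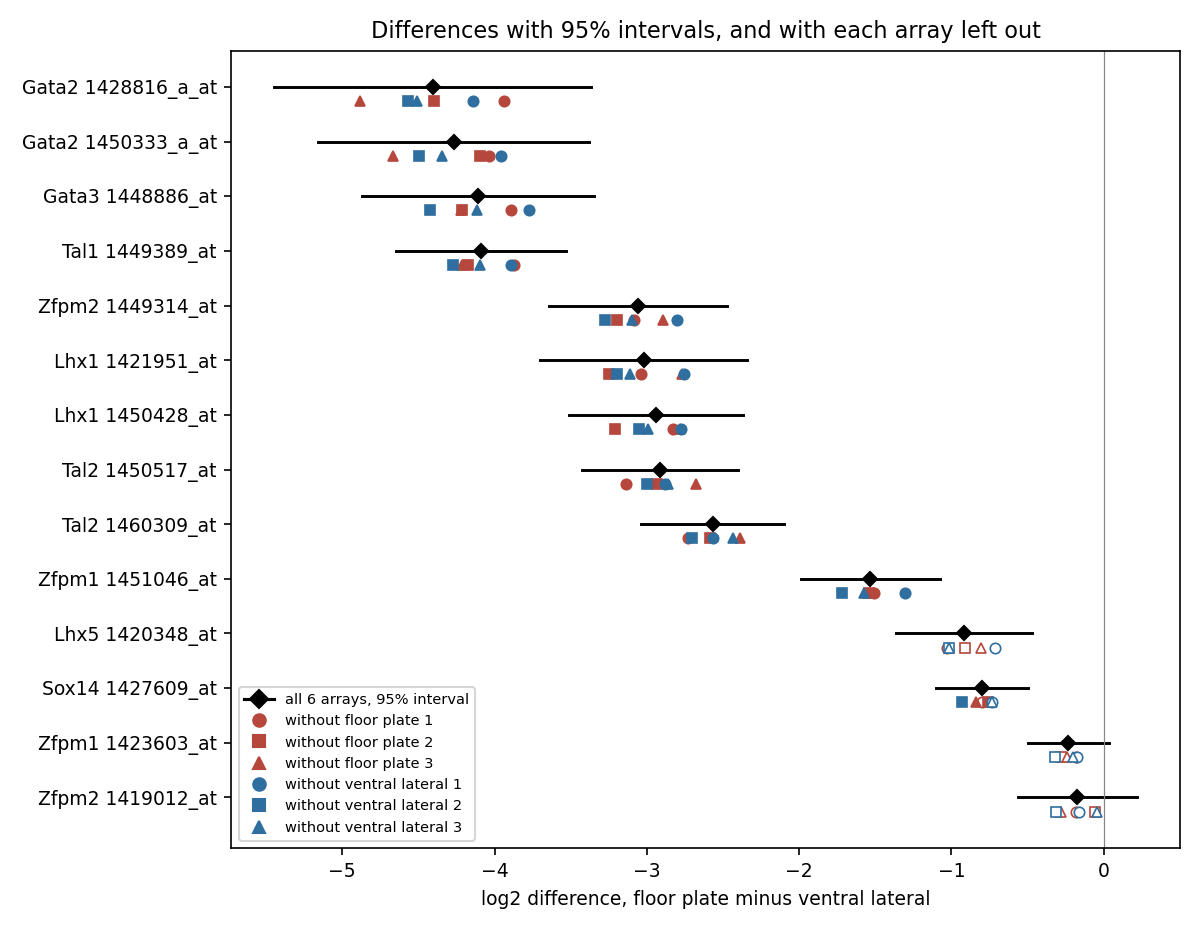
Log2 difference, floor plate minus ventral lateral (horizontal axis), for each of the 14 probe sets (rows), with all 6 arrays (diamonds, 95% interval from limma) and with each array left out (small markers below, open where the adjusted p was 0.05 or more). Gata2, Gata3 and Tal1 lie furthest to the left, Lhx5 has open markers throughout, and the lower-numbered probe sets of Zfpm1 and Zfpm2 have intervals that cross 0.

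By size of the log2 difference, the genes fell into the order Gata2, Gata3, Tal1, Zfpm2, Lhx1, Tal2, Zfpm1, Lhx5 and Sox14, taking for each the probe set with the largest variance. This choice favours probe sets with a large difference between the regions. On their other probe sets Zfpm1 (-0.23) and Zfpm2 (-0.17) would come after Sox14. Neighbouring intervals overlapped along most of this order. The step from Tal1 (-4.64 to -3.53) to Zfpm2 (-3.64 to -2.47) was one of overlapping intervals, and so was that from Zfpm1 (-1.99 to -1.08) to Lhx5. Tal2 (-3.43 to -2.40) and Zfpm1 were the neighbours whose intervals were apart.

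**Figure D3:**
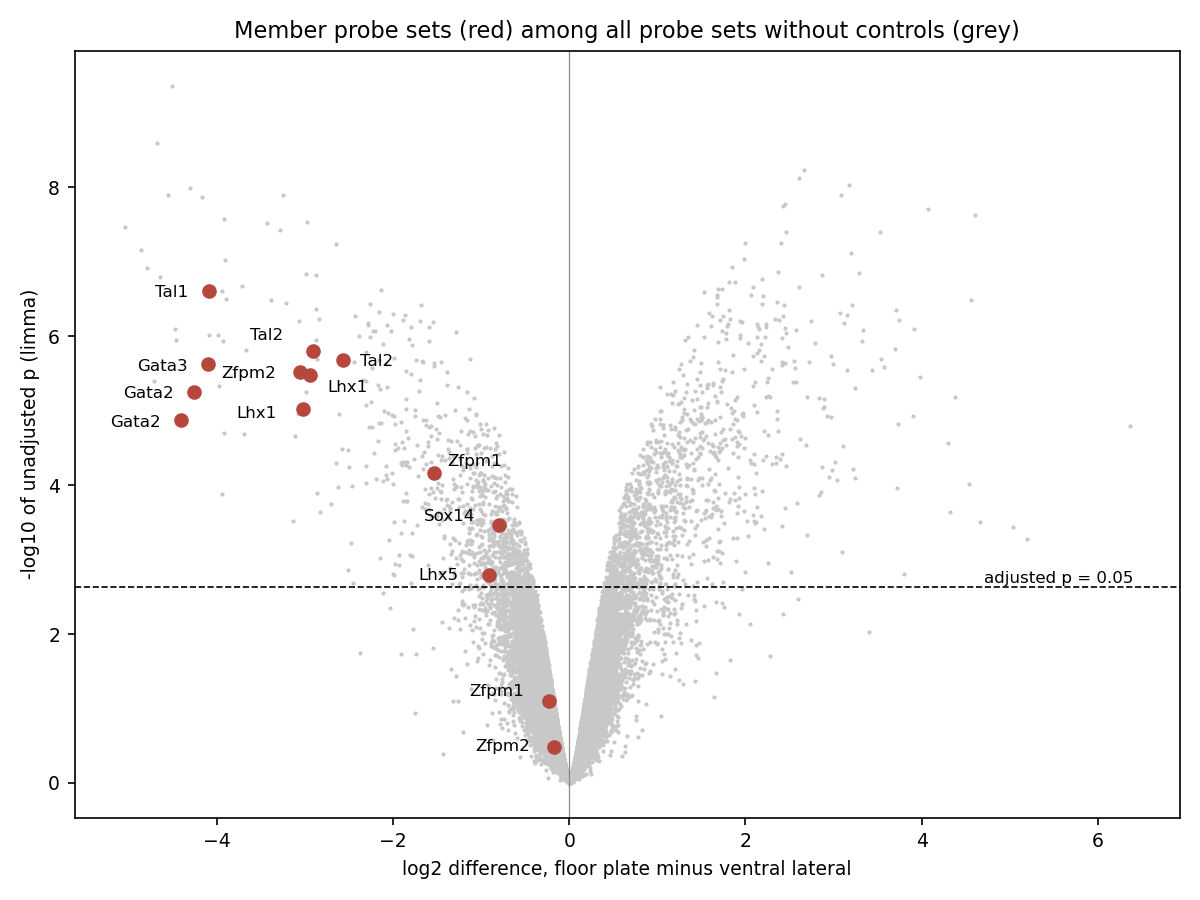
Unadjusted p from limma as -log10 (vertical axis) against the log2 difference, floor plate minus ventral lateral (horizontal axis), for 45037 probe sets (grey) and the 14 probe sets of selector genes (red, named). The dashed line marks an adjusted p of 0.05; 12 red points lie above it on the left and 2 below it near 0.

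The ventral lateral samples differed among themselves in the same way on most member probe sets. Among the 12 lower probe sets, ventral lateral replicate 2 had the lowest value of its region on 11 and ventral lateral replicate 1 the highest on 9. The mean over these 12 was 1.80, 1.08 and 1.37 in ventral lateral replicates 1, 2 and 3, and -1.59, -1.36 and -1.45 in the floor plate replicates. Ventral lateral replicate 2 also had the highest mean of the 9 floor plate markers within its region, at -0.90, against -1.63 in replicate 1 and -2.08 in replicate 3. The part of floor plate tissue in this sample was not tested. Without it the differences were as large or larger, for example -4.43 in Gata3, -4.27 in Tal1 and -3.27 in Zfpm2 (1449314_at). In that fit 11 of 14 probe sets were lower. Removing the lowest sample of a region raises the mean of that region, so the larger differences were fixed in advance and are no check. Without ventral lateral replicate 1 the same differences were -3.77, -3.89 and -2.80, and 10 of 14 probe sets were lower.

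Start regions of the genes are shown because the genes were lower together and because GATA and Tal proteins bind known letters. RefSeq start regions on build GRCm38.p6 were found for 8 of the 10 genes, 10 in all, and not for Lhx5 and Zfpm2. The 250 bases before each start were searched on both strands for a GATA site (the letters GATA with A or T before them and A or G after), an E-box (CANNTG), which Tal proteins bind with a partner, and the homeobox core TAATTA. The lines below give 5 of them 5′ to 3′ in the direction of the gene, with matches in capitals.
Gata2 chr6:88198414-88198663 (+): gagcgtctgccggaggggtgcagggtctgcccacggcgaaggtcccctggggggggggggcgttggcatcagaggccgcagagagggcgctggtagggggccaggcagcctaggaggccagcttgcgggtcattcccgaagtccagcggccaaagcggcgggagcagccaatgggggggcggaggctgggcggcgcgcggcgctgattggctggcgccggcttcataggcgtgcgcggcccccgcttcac
Gata3 chr2:9878601-9878850 (-): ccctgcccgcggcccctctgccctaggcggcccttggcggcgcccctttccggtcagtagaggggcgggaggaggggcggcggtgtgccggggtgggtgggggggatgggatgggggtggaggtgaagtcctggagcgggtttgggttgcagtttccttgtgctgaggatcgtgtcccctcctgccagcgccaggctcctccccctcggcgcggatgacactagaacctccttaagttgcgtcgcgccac
Tal1 chr4:115056176-115056425 (+): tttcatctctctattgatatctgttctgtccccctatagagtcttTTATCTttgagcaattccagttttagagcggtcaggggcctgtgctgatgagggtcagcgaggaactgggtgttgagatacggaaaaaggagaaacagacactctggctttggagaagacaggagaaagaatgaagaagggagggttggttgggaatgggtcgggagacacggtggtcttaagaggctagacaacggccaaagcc
Tal2 chr4:53779451-53779700 (+): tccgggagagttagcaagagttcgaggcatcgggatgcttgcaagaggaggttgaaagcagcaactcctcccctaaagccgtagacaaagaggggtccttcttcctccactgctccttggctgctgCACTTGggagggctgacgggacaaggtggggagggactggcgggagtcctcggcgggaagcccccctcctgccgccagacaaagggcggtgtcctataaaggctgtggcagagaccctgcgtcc
Sox14 chr9:99876171-99876420 (-): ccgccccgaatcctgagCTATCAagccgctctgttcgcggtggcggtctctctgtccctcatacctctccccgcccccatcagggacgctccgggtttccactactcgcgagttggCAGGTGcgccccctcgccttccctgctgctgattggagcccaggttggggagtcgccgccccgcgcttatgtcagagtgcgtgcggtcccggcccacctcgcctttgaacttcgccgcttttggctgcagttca
A GATA site lay 205 bases before the first start of Tal1 and 233 bases before that of Sox14, both on the opposite strand. E-boxes lay 124 bases before the start of Tal2, 134 before that of Sox14 and 143 before that of Helt. Thus 2 of 10 start regions held a GATA site, against 26.5% of all 32851 regions, and 3 of 10 an E-box, against 66.2%. TAATTA was in 0 of 10, against 4.84%. An E-box and GATA with 7 to 9 bases between them was in 0 of 10, against 1.42%; this pair can include a GATA site or E-box already counted. The start regions shown for Gata2 and Gata3 held none of these letters in the 250 bases. The GC content of the 10 regions was 48.8% to 74.0%, and the median of all regions was 52.4%. A match is a string of letters and not evidence of binding.

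Further gene groups were set beside the selector genes. Genes for making, moving or breaking down GABA were lower on 3 of 5 measured genes and higher on 0. The background was 3.25% lower and 4.58% higher. Gad1, a GABA-synthesising enzyme gene, was at -2.59, -2.03 and -2.59 in floor plate and 2.38, 2.03 and 2.05 in ventral lateral samples (probe set 1416561_at, log2 difference -4.56, SE 0.18). Its second probe set, 1416562_at, had a log2 difference of -1.43 (SE 0.25, limma adjusted p = 0.0181). Slc32a1, the vesicular GABA transporter gene, had a log2 difference of -4.48 on probe set 1422756_at, while its other 3 probe sets had log2 differences of -0.64, -0.36 and -0.17 that did not pass. Gad2, the second synthesising enzyme gene, fell by 3.91 and 2.58 on its 2 probe sets. The other measured genes, Slc6a11 (-4.9e-05 and 0.0023) and the GABA breakdown gene Abat (0.11 and 0.19), did not pass. The median over the 12 probe sets of this group was -0.50.

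Progenitor factors that act before the selector genes were lower on 6 of 12 measured genes and higher on 1. Of all genes, 3.25% were lower and 4.58% higher. The median over the 19 probe sets of these factors was -1.73. Dbx1 (log2 difference -3.98), Pax6 (-3.92 on probe set 1419271_at), Pax3 (-2.99) and Nkx6-2 (-2.88) led them, and the ventral homeodomain gene Nkx2-2 fell by 2.11. Of the 5 probe sets of Pax6, 3 passed the test, and 1425960_s_at (-0.29) and 1456342_at (-0.11) did not. Pax3 and Pax7 are dorsal midbrain factors. The progenitor factor gene that was higher was Hes1, a Notch target (1.10). A fit that left out ventral lateral replicate 2 gave 2 higher genes in this list. Among other factors of GABAergic or lateral midbrain neurons 5 of 16 genes were lower and 0 higher, beside 3.25% and 4.58% of all genes. Six3 (-4.79), Lhx2 (-4.68), Lhx9 (-4.47) and Meis2 (-1.39) led these, and 1 of the 3 probe sets of Six3 had a log2 difference of 0.0022. The GATA genes outside the nervous system did not pass on any probe set, with log2 differences of -0.33 in Gata1, -0.06 and 0.45 in Gata4, and -0.35 to 0.07 in Gata6.

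Of the known partners of GATA and Tal proteins, 19 genes were measured. Of these, 3 were lower (15.8%, beside 3.25% of all genes) and 1 was higher (5.26%, near the 4.58% of all genes), with a median of -0.08 over 50 probe sets. Cbfa2t3, a corepressor gene of the ETO family, was lower on 3 probe sets (log2 differences -1.75, -1.33 and -1.02) but did not pass on 1418582_at (-0.60). Its relative Runx1t1 was lower on 4 (-1.26 to -0.70) and did not pass on 1440310_at (-0.79) and 1443788_at (-0.31). Lmo1, a LIM-only bridging factor gene, was at -0.78, -0.36 and -1.02 in floor plate and 1.12, 0.41 and 0.36 in ventral lateral samples (log2 difference -1.35, SE 0.24, adjusted p = 0.0206). The E-protein gene Tcf12, whose product pairs with Tal proteins on E-boxes, was higher on 4 probe sets (0.73 to 1.50). On probe set 1439209_at (0.37) it did not pass. The bridging factor genes Lmo2 (0.38), Lmo4 (0.19) and Ldb1 (-0.19) had the values given on 1 probe set each, none past the threshold (adjusted p of 0.356 to 0.511), nor did the Tal1 relative Lyl1 pass (-0.13, adjusted p = 0.707).

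Factors and transporters of glutamatergic neurons were lower on 1 of 12 genes (8.33%, beside 3.25% of all genes) and higher on 2 (16.7%, beside 4.58%). The median was 0.01. The lower gene was Pou4f1 (-2.27), a POU factor of the red nucleus. Neurog2 (1.38), a proneural factor gene, and Lmx1b (3.72), a LIM homeobox gene also active in dopaminergic progenitors, were higher. With floor plate replicate 1 or with ventral lateral replicate 1 left out, 1 gene was higher, and with ventral lateral replicate 2 left out 3 were. With floor plate replicate 2 left out 2 were lower.

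General neuronal genes were lower on 5 of 13 (38.5%, beside 3.25% of all genes) and higher on 0 (beside 4.58%). Their median was -0.44 over 32 probe sets. They included Syt1 (-1.10), Ina (-1.05), Stmn3 (-1.05) and Nefl (-0.68), which all differed in the direction of the selector genes. The mean over the 13 genes was -0.30, -0.08 and -0.24 in the floor plate samples, against 0.43, 0.26 and 0.0040 in the ventral lateral samples. The part of neuron content in the fall of the selector genes was not tested. Leaving out floor plate replicate 1 cut the count to 1, leaving out floor plate replicate 3 or ventral lateral replicate 1 to 2, and leaving out ventral lateral replicate 2 to 3.

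Gata2, Tal1 and Zfpm1 are also genes of blood and its precursors, and Gata2 and Tal1 of vessel walls. Red blood cell markers were lower on 0 of 10 measured genes and higher on 0, and the regions overlapped on each of their 17 probe sets. Their mean was -0.08, 0.12 and -0.08 in floor plate and -0.12, 0.22 and 0.08 in ventral lateral samples. The embryonic globin gene Hbb-bh1 had log2 differences of -0.02, -0.0004 and 0.03, and Klf1, an erythroid master regulator gene, one of -0.27 (adjusted p = 0.448). Vessel markers were higher on 0 and lower on 1 of 12 genes, namely Cldn5 (-0.68, limma adjusted p = 0.0227). Their mean was -0.18, 0.04 and -0.18 in floor plate and -0.03, 0.15 and 0.10 in ventral lateral samples. On their 18 probe sets, floor plate samples lay wholly below the ventral lateral samples on 4 and wholly above on 1. Over all probe sets these shares were 11.0% and 11.5%, and over all genes 3.25% were lower and 4.58% higher. When floor plate replicate 1 or 3, or ventral lateral replicate 1 or 3, was left out, the count of lower vessel genes was 0.

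Markers of neighbouring brain regions were compared between floor plate and ventral lateral samples. The values carry no level, so tissue from beyond the midbrain that was present in both alike could not be seen. Hindbrain genes passed on 0 of 7 and genes of serotonergic neurons, which also use Gata2 and Gata3, on 0 of 3. Over all genes 3.25% were lower and 4.58% higher, so counts of 0 among so few genes are uninformative. Forebrain genes passed on 1 of 9, Emx2, which was lower in floor plate (log2 difference -3.14) but did not pass when replicate 1 of either region was left out. The mean of the 9 forebrain genes was -0.32, -0.15 and -0.19 in floor plate, against 0.13, 0.84 and 0.08 in ventral lateral samples, with replicate 2 apart. The part of forebrain tissue in ventral lateral replicate 2 was not tested. The selector gene values without this sample, given above, cannot decide it, since removing the lowest sample of a region enlarges the differences.

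**Figure D4:**
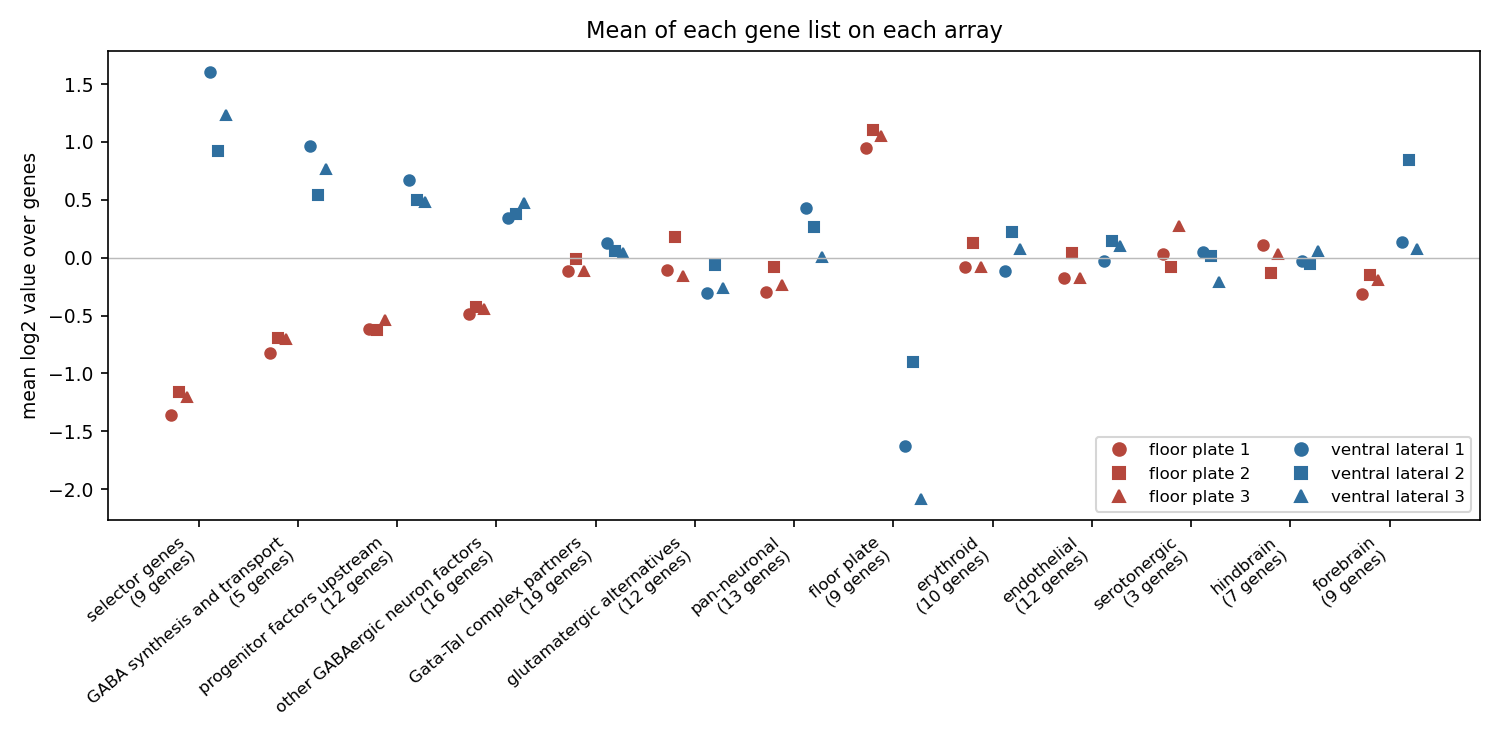
Mean log2 value over the genes of each group (vertical axis) on each floor plate array (red, left) and each ventral lateral array (blue, right), with the number of measured genes under each name. The 9 selector genes lie between -1.36 and -1.16 in floor plate and between 0.92 and 1.60 in ventral lateral samples, and the 10 erythroid genes between -0.12 and 0.22 on all arrays.

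The genes whose values were closest to those of a selector gene over the 6 arrays were found by Euclidean distance among 18192 other genes, with the probe set of largest variance for each, for the 4 members with the largest differences. This is a description of 6 samples in 2 regions. Closest to Gata2 were Pax6 (distance 1.23), Slc32a1 (1.26) and Tal1 (1.35). Gata3 was closest to Tal1 (0.54), followed by Tfap2a (0.63), an AP-2 factor gene, and Nkx1-2 (0.66). Tal1 lay nearest to Tfap2a (0.45), then Gata3 (0.54) and Slc32a1 (0.65). Zfpm2 had Lhx1 as its nearest gene (0.44), before Ndst3 (0.47), a heparan sulfate enzyme gene, and Pnoc (0.54), the prepronociceptin gene. For each of the 4, another selector gene was among the 3 nearest. These 4 were picked for large differences between the regions, and genes with differences of like size lie close on this measure. The nearness is therefore not a separate result about the selector genes.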

How the data were processed

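Total RNA of 3 floor plate and 3 ventral lateral pools was profiled on Affymetrix arrays. The deposited values were taken as log2 values; the submitters' processing notes name RMA, with no version in the sources used here. In 100% of 45101 probe sets the 6 arrays had a median within 1e-05 of 0, so the values carry no signal level, and no filter on dim probe sets was possible. Names came from GEO's platform annotation (34945 probe sets with 1 symbol, 932 with several, 9160 with none, 64 controls); 34741 matched a RefSeq table of GRCm38.p6, and 0 names changed. Differences over all 45037 probe sets without controls were fitted with lmFit and eBayes (limma 3.58.1, R 4.3.3), with Benjamini-Hochberg adjustment and a threshold of 0.05. A gene counted as lower or higher where at least 1 of its probe sets passed. Alternatives were other normalizations, array weights, robust eBayes, other sets of probe sets, 1 value per gene, the replicate number as a block and leaving out each sample. From further lists, up to 4 passing genes per direction and a fixed set were named. Foxa2, Shh, Gata4, Gata6, Hbb-bh1, Klf1, Slc6a11 and Abat were named after their values were seen. Members and lists were chosen with earlier results of these data known. List genes without a singly named probe set are not analysed here. Exact permutation of 3 against 3 samples cannot give a p below 0.1, so none was used.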

Additional observations from a re-analysis of the deposited data

How the results depend on the processing

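The 12 lower probe sets and 9 lower genes among the selector genes were called again after quantile normalization, centring of arrays, array weights and robust eBayes. They were also called without probe sets ending in _x_at or _s_at, and when 1-symbol probe sets alone were fitted. These filters could not remove a member probe set and changed only the other probe sets in the fit. Centring moved the arrays little, since their medians were already -0.0031 to 0.0045. No higher member was called under any of the 16 alternatives. Leaving out 1 sample left 10 to 11 lower probe sets and 7 to 8 lower genes; Lhx5 and Sox14 were the genes lost. With 1 probe set per gene, the lowest ID number left 7 lower genes, without Zfpm1 (-0.23, adjusted p = 0.329) and Zfpm2 (-0.17, adjusted p = 0.666), whereas averaging each gene's probe sets gave 9, with Zfpm1 at -0.88 and Zfpm2 at -1.61. Over the whole table, leaving out 1 sample, and so fitting fewer, gave 510 to 743 lower and 753 to 991 higher probe sets against 903 and 1218. The labels do not say whether equal replicate numbers mark a pair. Deviations of equal-numbered samples correlated at 0.01, 0.12 and 0.11, so not every pair was above 0.1. Floor plate replicates 2 and 3 correlated best with their own number and replicate 1 with ventral lateral replicate 3, a hint from the data only. With the replicate block, 12 member probe sets were lower, 842 probe sets were lower and 1062 higher in the whole table, and 3 rather than 5 general neuronal genes were lower; the lowest ID numbers also gave 3. Without signal levels, signal over background could not be checked.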
